A study of Mus musculus with 4 samples.

Results

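The genes described here encode the receptors by which cells hold on to extracellular matrix and the matrix proteins of basement membranes. They were the integrins, laminins, nidogens, syndecans, discoidin domain receptors and nephronectin. They were taken by gene symbol, from every probe set annotated with a single symbol that was Itga or Itgb followed by digits, Itgav, a laminin alpha, beta or gamma chain, Nid1, Nid2, Sdc1 to Sdc4, Npnt, Ddr1 or Ddr2. This gave 71 of 45141 probe sets and 33 of 17097 genes. Genes of these families with no such probe set in the annotation used were not analysed here. Itga2b, whose symbol ends in a letter, was not taken.

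RNA came from ATDC5, an established mouse chondrogenic cell line, on 4 expression arrays. The 2 control arrays were from cells given a universal scrambled duplex, and the 2 knockdown arrays from cells given a duplex against Chadl, the gene of the leucine-rich repeat protein chondroadherin-like. All cells received 30 nM of a 27-mer duplex with a lipid transfection reagent, were moved to differentiation medium after 16 h, and were taken on day 5. A single Chadl duplex was effective per the labels, so effects of its sequence other than on Chadl cannot be told apart from those of losing Chadl. It is shown because it defines the knockdown group, and the labels give 25 bases of it, all in lower case here:

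Chadl duplex: acaagguagagaaacaaagagacca

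Integrins are receptors of an alpha and a beta chain that span the membrane and link matrix proteins to the actin cytoskeleton. Some bind collagen, some bind laminin, and some bind the short Arg-Gly-Asp (RGD) motif of proteins such as fibronectin and nephronectin. Laminins are trimers of an alpha, a beta and a gamma chain, and nidogens tie the laminin network to that of type IV collagen. Syndecans are transmembrane heparan sulfate proteoglycans, and discoidin domain receptors are tyrosine kinases activated by collagen. Chondrocytes are surrounded by a pericellular matrix that contains collagen and basement membrane proteins, and they use these receptors to sense it.

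Nephronectin is a secreted matrix protein first known as a ligand of integrin alpha8 beta1. Read from the brightest probe set of each gene, its gene and that of the alpha8 chain had the lowest differences from control of all members. The sequences before these genes are therefore shown, from RefSeq's GRCm38.p6 windows of 250 bases before a transcript start, 5′ to 3′ on the minus strand. Only bases outside the annotated gene are printed, at chr3:132950292-132950541 for Npnt and chr2:12301986-12302194 for Itga8. Capitals mark GC boxes (GGGCGG or its reverse complement), the only motif searched that was found in either window:

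Npnt: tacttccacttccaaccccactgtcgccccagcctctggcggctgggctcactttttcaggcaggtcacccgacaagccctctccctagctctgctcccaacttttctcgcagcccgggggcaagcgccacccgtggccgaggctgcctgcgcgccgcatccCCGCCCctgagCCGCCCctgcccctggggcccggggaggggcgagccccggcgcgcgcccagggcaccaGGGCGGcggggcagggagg

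Itga8: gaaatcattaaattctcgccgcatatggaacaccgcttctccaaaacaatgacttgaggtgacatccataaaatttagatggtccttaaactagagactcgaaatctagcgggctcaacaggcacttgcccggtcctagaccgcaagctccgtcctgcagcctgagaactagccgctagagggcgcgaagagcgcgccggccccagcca

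The windows of the ligand and the receptor gene differed in base composition. G and C made up 74.0% of the Npnt window and 56.4% of the Itga8 window, against a median of 58.8% over the 23 members matched to a promoter and 52.0% over 27025 genes. Besides the GC box, 3 motifs were searched over the full windows on both strands. The core bound by RUNX factors, TGTGGT, was in 1 of the 23 member windows (Itga4) and in 14.18% of all windows. The TATA box, as TATAAA, was in 1 (Ddr2) and in 12.97% of all. The AP-1 motif, as TGANTCA, was in 0 of the 23 and in 6.87% of all. The GC box was in 11 of the 23, Npnt among them, and in 32.94% of all. A match is a run of letters and not a shown binding site, and the GC boxes printed do not overlap.

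Signals are given as log2 RMA values per probe set, in the order control 1, control 2, knockdown 1, knockdown 2, and each gene is read from its brightest probe set. Differences are the knockdown mean minus the control mean on the log2 scale, fitted with limma over all genes. Medians of the arrays lay between 4.24 and 4.25. Chadl itself read 4.91 and 4.84 in control against 4.29 and 4.64 in knockdown, and the difference did not pass (-0.41, SE 0.12, limma adjusted p = 0.728). It was read by 1 probe set at the 47.1th percentile, below the median signal, where array signal can understate a fold change. Knockdown 1 stood apart. Over all genes the SD of the difference between arrays was 0.104 for the controls, 0.204 and 0.204 for knockdown 1 against either control, and 0.134 and 0.134 for knockdown 2. Over the members the same SD was 0.104 between controls, 0.496 and 0.460 for knockdown 1, and 0.156 and 0.145 for knockdown 2. The largest member differences of knockdown 1 from the controls were 2.39 and 2.23, both for Npnt. The member SDs for knockdown 1 thus rest heavily on 1 gene, and SDs without Npnt were not computed. They do not show that the members as a set differed more than other genes. Because knockdown 1 stood apart, most named members are given with both knockdown arrays. The titles name the arrays as biological replicates, but whether that means separate cultures is not given in the sources used here. Accordingly, p-values measure only the spread between these arrays, which may be technical.

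Of the labelled cell type's markers, Col11a1, Col2a1 and Sox9 lay at the 96.4th, 92.1th and 79.8th percentile of signal over all genes, and 6 of 11 chondrogenic markers were at or above the median. Matn1, Comp and Matn3, which encode cartilage matrix proteins, lay between the 36.1th and the 37.8th. None of 7 endothelial and 5 skeletal muscle markers was at or above the median, and 1 of 7 blood markers (Cd14) and 1 of 7 epithelial markers (Epcam) were. Osteoblast markers were high as well, with 4 of the 5 measured at or above the median. The median percentile of these 5 was 86.9, against 52.8 for the 11 chondrogenic markers.

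No member passed the test. At an adjusted p of 0.05 in limma 0 of 33 genes were called, as were 0 of all 17097 (0%), and the lowest adjusted p of a member was 0.615, for Nid1. Taken without adjustment, a p under 0.05 was reached by 3 lower members (Itga8, Sdc2 and Ddr2) and by 2.52% of all genes in that direction. On the higher side it was reached by 2 members (Itga1 and the brighter Nid1 probe set) and by 4.15% of all genes. Knockdown and control arrays did not overlap for 17 members. The knockdown arrays were the lower for 11 (33.3% of members), against 17.1% of all genes. They were the higher for 6 (18.2% of members), against 21.2% of all genes. The median difference of the 33 members was -0.04, or -0.07 on the knockdown 1 array and -0.01 on the other, and that of all genes was 0.0067. The members were chosen with earlier results of these arrays known, so neither count is evidence about the families.

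**Figure D1:**
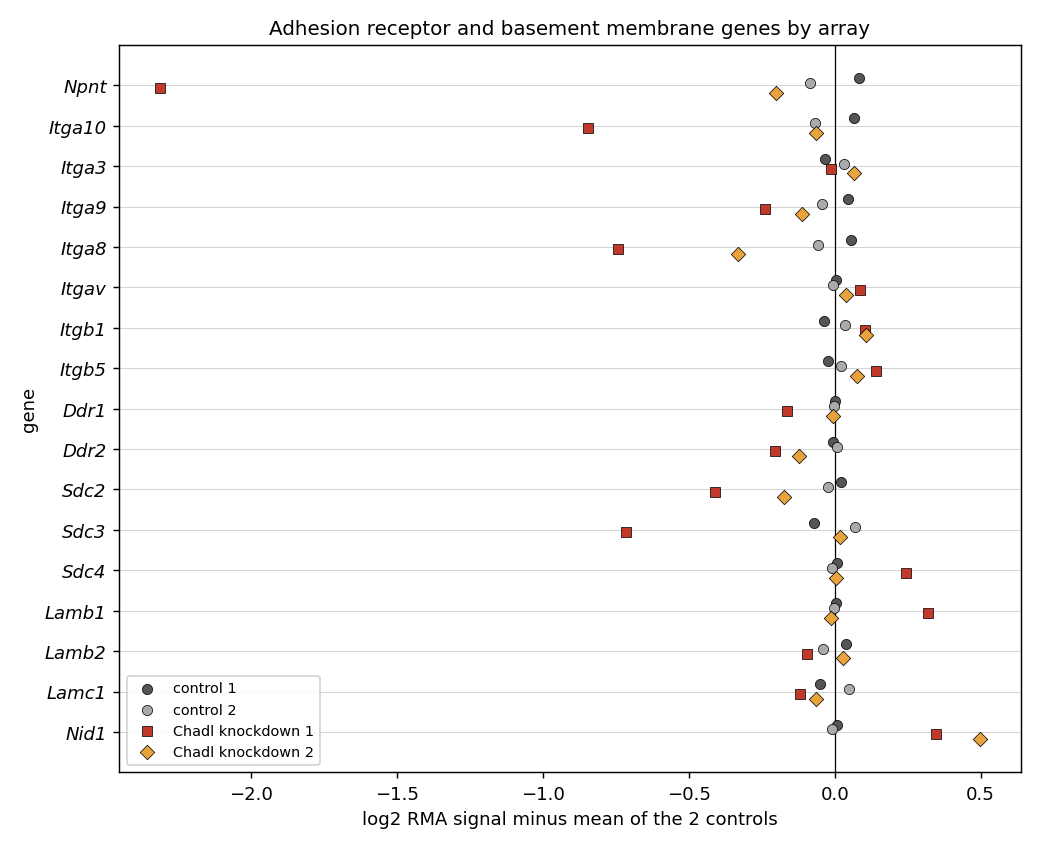
Log2 RMA signal of each named gene on each of the 4 arrays (x axis), as the difference from the mean of the 2 controls, with genes in rows (y axis) and 1 symbol per array. Knockdown 1 lies far from the other arrays for Npnt, Itga10 and Sdc3. Npnt, Itga8, Sdc2 and Ddr2 are among the genes with both knockdown arrays below the controls. The Nid1 probe set used is among those with both above them.

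Nephronectin had the largest difference of the members, and most of it was on a single array. Npnt, at chr3:132881745-132950291 in GRCm38.p6, is also a gene of osteoblast precursors. It read 6.40 and 6.24 in control, 4.01 in knockdown 1 and 6.12 in knockdown 2. Both knockdown arrays were below both controls, with knockdown 2 close under control 2. The signal lay 4.96-fold below the control mean in knockdown 1 and 1.15-fold below it in knockdown 2. On average it was lower (difference -1.26, SE 0.59, 95% confidence interval -2.69 to 0.18) and did not pass (unadjusted p = 0.0760, adjusted p = 0.752, limma). Without knockdown 1 it was -0.20, and without knockdown 2 it was -2.31.

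Of the other probe sets of Npnt, the brighter ones showed the same order and the dimmest did not. Whether dimness accounts for that was not tested. The next by signal read 6.10 and 6.02 in control against 4.44 and 5.71, a difference of -0.98 (SE 0.34), with knockdown 2 lower by 0.35. The probe set after it read 4.71 and 4.80 against 4.15 and 4.55, a difference of -0.41 (SE 0.13). In these 3 probe sets both knockdown arrays were below both controls and knockdown 1 was the lower. The remaining probe sets were dim, at 3.95 and 4.09 against 4.05 and 4.11, and at 3.84 and 3.50 against 3.44 and 3.64. They differed by 0.06 and -0.13, with overlapping groups. Fitted over all 45037 probe sets that were no array controls, none of the 5 passed (lowest limma adjusted p = 0.623), and 1 probe set of the whole table did (0.00222%).

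**Figure D2:**
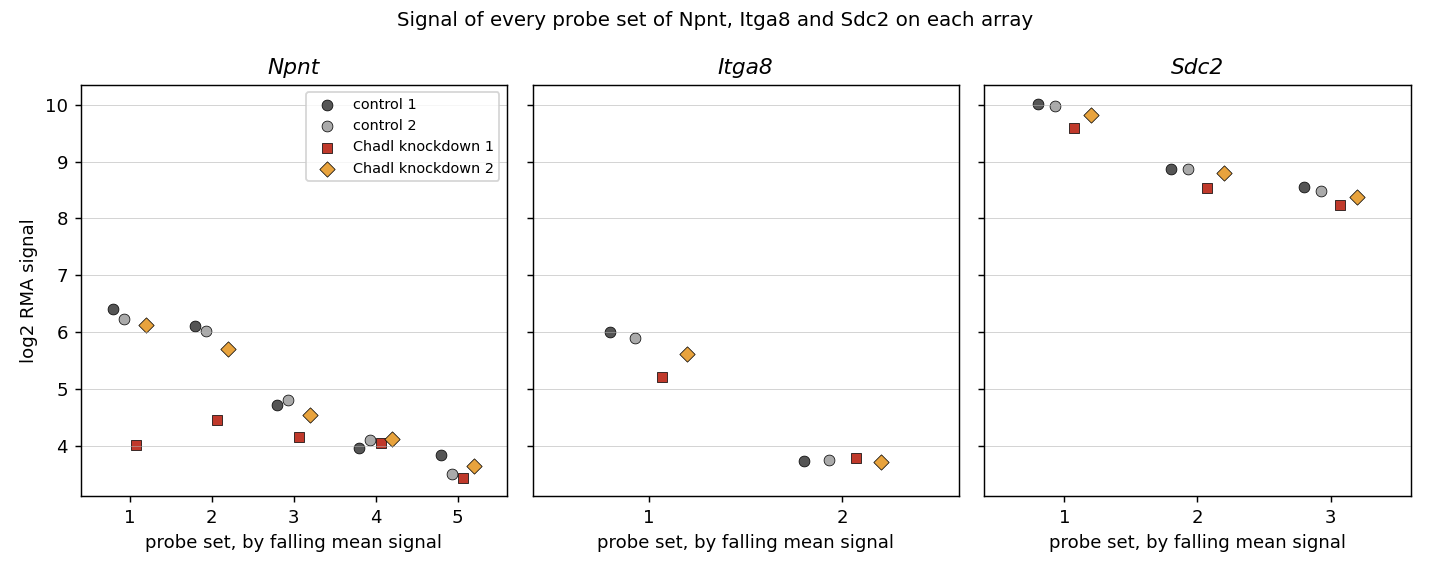
Log2 RMA signal (y axis) of each probe set of Npnt, Itga8 and Sdc2 (x axis, ordered by falling mean signal) on the 4 arrays, with 1 symbol per array. The 3 brightest Npnt probe sets, the brighter Itga8 probe set and all 3 of Sdc2 have both knockdown arrays below both controls. The remaining probe sets do not separate.

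Markers of osteoblasts were lower alongside Npnt. Of 7 listed, 5 were measured (Col1a1, Ibsp, Sp7, Bglap and Dmp1), and each was lower on both knockdown arrays without overlap, as were 17.1% of all genes. None passed (limma adjusted p from 0.694 for Ibsp to 0.760 for Bglap), and Bglap lay only 0.03 below the control mean in knockdown 2. Their median difference was -1.13 in knockdown 1 and -0.15 in the other. Their summed linear signal was 2491 and 2527 in control, 1211 in knockdown 1 and 1769 in knockdown 2. Most of that fall came from Ibsp, which read 10.15 and 10.15 in control against 7.02 and 9.01. Col1a1, also bright, was 1.09-fold and 1.11-fold lower. None of the 5 markers had a signal at or under 2.5 on the log2 scale. That cut lies close to the lowest signals of the arrays (2.17 to 2.21), so it says little about detection. Dmp1 averaged 3.95 over the arrays, under the median of all genes (4.86), where array signal can understate a fold change. The part of the 5 markers in the Npnt difference was not tested. In RNA from whole cultures fewer cells of a type and less RNA per cell cannot be told apart. Of the 11 chondrogenic markers, 8 were lower on average and 3 higher. Groups did not overlap for 2 lower ones (Hapln1 and Sox5) and 1 higher one (Col11a1), against 17.1% and 21.2% of all genes. The median difference of these 11 was -0.09 in knockdown 1 and -0.009 in knockdown 2.

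Itga8, the alpha chain that pairs with Itgb1 to bind nephronectin, was lower on both knockdown arrays. The gene lies at chr2:12106632-12301985 and read 6.0 and 5.89 in control, 5.20 in knockdown 1 and 5.62 in knockdown 2. The groups did not overlap, and knockdown 1 was again the lower. The signal was 1.67-fold and 1.26-fold below the control mean, a difference of -0.54 (SE 0.14, 95% confidence interval -0.88 to -0.19). It did not pass (unadjusted p = 0.00828, adjusted p = 0.694, limma). Its other probe set was dim and flat, at 3.73 and 3.74 against 3.78 and 3.72. With the probe sets of a gene averaged, Itga8 differed by -0.26, less than Itga10 (-0.45) and Lamc1 (-0.32). The beta chain gene Itgb1 read 9.15 and 9.22 in control against 9.29 and 9.29, a difference of 0.10 (SE 0.05), and all 5 of its probe sets were on the higher side. Its second probe set by signal read 9.07 and 9.11 against 9.23 and 9.26, a difference of 0.16 (SE 0.05). The ligand and the alpha chain were thus lower on both knockdown arrays while the beta chain was slightly higher, and none of the 3 passed.

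**Figure D3:**
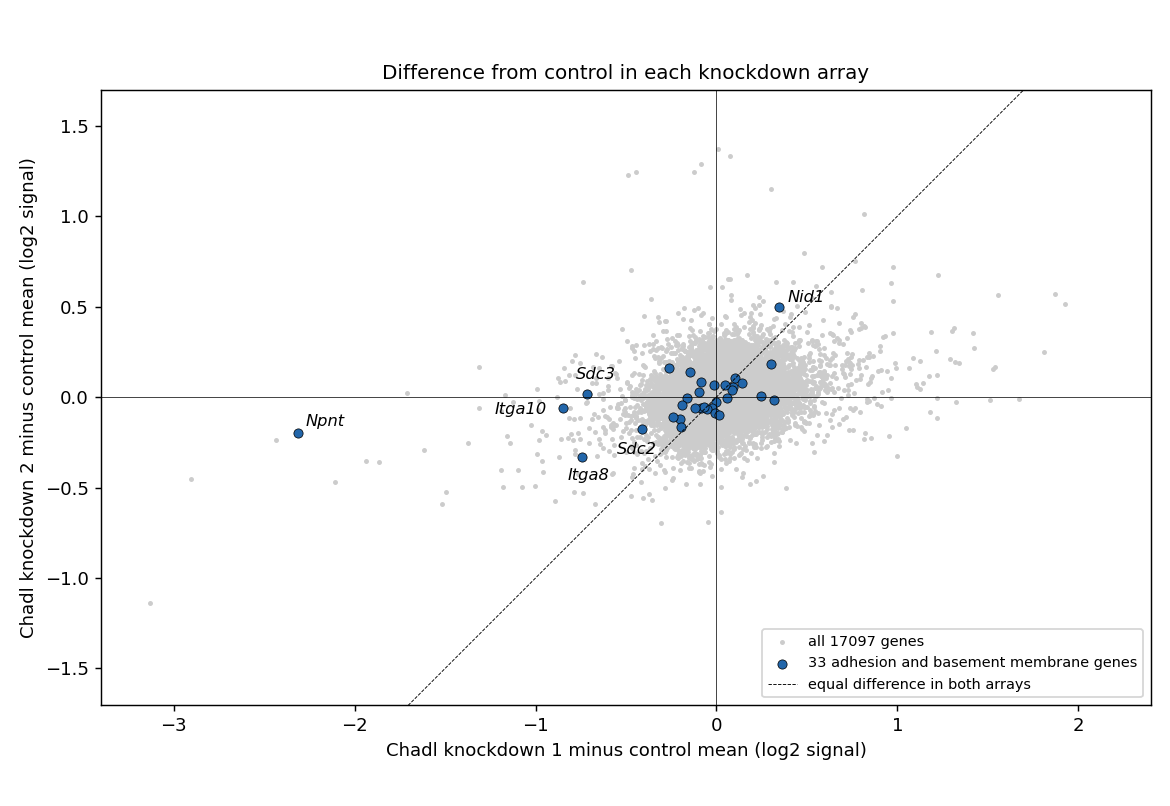
Difference from the control mean in knockdown 1 (x axis, log2 signal) and in knockdown 2 (y axis, log2 signal) for 17097 genes in grey and the 33 members in blue, with a dashed line where both are equal. Itga10 and Sdc3 lie close to the horizontal axis, low in knockdown 1 and at -0.06 and 0.02 in knockdown 2. Npnt, Itga8 and Sdc2 are negative on both axes, with Npnt farthest out in knockdown 1 (-2.31, against -0.20 in knockdown 2). The Nid1 probe set used is positive on both.

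The other integrin chains bright enough to be read differed by little, apart from Itga10. Of 18 integrin genes measured, 7 were at or above the median signal. The groups did not overlap for 10, of which 6 were lower in knockdown, against 17.1% of all genes, and 4 higher, against 21.2%. Itga10, the alpha chain of the collagen receptor typical of chondrocytes, read 5.95 and 5.82 in control against 5.04 and 5.82. Only knockdown 1 was low, by 1.80-fold, and knockdown 2 lay between the controls. The mean difference was -0.45 (SE 0.24, limma adjusted p = 0.759), and -0.06 without knockdown 1. Col2a1, the collagen of cartilage, which this receptor binds, had a like pattern at 9.01 and 9.08 against 8.23 and 9.17.

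The chains of the RGD-binding receptors alpha-v beta5 and alpha-v beta1 were bright and lay slightly above control. Itgav read 9.83 and 9.82 against 9.91 and 9.86, a difference of 0.06 (SE 0.04), although 2 of its 5 probe sets, both dim, had the opposite sign. With all of its probe sets averaged, the Itgav difference was -0.0015. Itgb5 read 9.06 and 9.10 against 9.23 and 9.16, a difference of 0.11 (SE 0.05), and its other probe set, at 8.49 and 8.46 against 8.60 and 8.51, was also higher on both arrays. Itgav, Itgb1 and Itgb5 thus had both knockdown arrays above both controls, with 1.04-fold to 1.08-fold between the group means, and none passed (limma adjusted p = 0.791 for Itgav, 0.752 for Itgb1 and 0.752 for Itgb5). Itga9, whose receptor binds tenascin and osteopontin, read 5.25 and 5.16 against 4.96 and 5.09, a difference of -0.17 (SE 0.09). Both of its other probe sets had the opposite sign, and the mean of its 3 probe sets differed by 0.0095. The laminin-binding chain gene Itga3 read 4.97 and 5.03 against 4.99 and 5.07, with overlapping groups.

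The discoidin domain receptors had both knockdown arrays below both controls. Ddr2, the receptor of fibrillar collagen found in mesenchymal cells, read 9.19 and 9.20 in control against 8.99 and 9.07. The difference was -0.16 (SE 0.05, 95% confidence interval -0.29 to -0.04), or 1.12-fold, and did not pass (unadjusted p = 0.0184, adjusted p = 0.728, limma). Its other probe set read 5.75 and 5.70 against 5.49 and 5.57, a difference of -0.20 (SE 0.09), lower on both arrays as well. Ddr1, the family member of epithelial cells, read 5.17 and 5.16 against 5.0 and 5.16, so that knockdown 2 was at the control level.

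The syndecans parted. Sdc2, the main syndecan of mesenchymal cells, read 10.02 and 9.98 in control against 9.59 and 9.83, lower on both knockdown arrays. Its signal was 1.33-fold and 1.13-fold below the control mean, a difference of -0.29 (SE 0.08, 95% confidence interval -0.48 to -0.11). The test was not passed (unadjusted p = 0.00818, adjusted p = 0.694, limma). The other Sdc2 probe sets read 8.87 and 8.86 against 8.54 and 8.80, and 8.56 and 8.49 against 8.24 and 8.38. All 3 thus had knockdown 1 lowest, knockdown 2 next and both controls highest, with differences of -0.29, -0.20 and -0.21.

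Sdc3, a syndecan of chondrocytes and neurons, read 7.99 and 8.13 in control against 7.34 and 8.08. It was 1.64-fold lower in knockdown 1 and lay between the controls in knockdown 2, a mean difference of -0.35 (SE 0.22, limma adjusted p = 0.778). Without knockdown 1 its difference was 0.02. The dimmest of its 3 probe sets was also low in knockdown 1 alone, at 4.39, against 4.87 and 4.84 in control and 4.83 in knockdown 2, and the other had the opposite sign (0.08). Sdc4, which joins integrins in focal adhesions, read 7.88 and 7.87 in control, 8.12 in knockdown 1 and 7.88 in knockdown 2. Here knockdown 1 was the higher array, by 1.19-fold, and knockdown 2 was at the control level.

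Laminin genes showed small differences in their brightest probe sets. Of 8 laminin genes measured, 3 were at or above the median signal. The groups did not overlap for Lamc1, lower in knockdown, and Lamc3, dim and higher. Lamb1, a widespread laminin beta chain, read 7.74 and 7.73 against 8.06 and 7.72, higher in knockdown 1 alone. Its difference was 0.15 (SE 0.11), and -0.01 without knockdown 1. A dimmer Lamb1 probe set was higher on both knockdown arrays, at 4.39 and 4.25 against 4.58 and 4.59. The dimmest was lower on both, at 3.68 and 3.62 against 3.55 and 3.55, and the remaining one overlapped at 6.36 and 6.41 against 6.50 and 6.38. Lamb2, which replaces Lamb1 in other laminins, read 5.94 and 5.86 against 5.80 and 5.93, with overlapping groups.

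Lamc1, the gamma chain shared by most laminins, read 7.40 and 7.50 against 7.33 and 7.39 in its brighter probe set, a difference of -0.09 (SE 0.07). Its other probe set read 5.59 and 5.28 in control against 4.91 and 4.87. That was a difference of -0.54 (SE 0.12), alike in both knockdown arrays at -0.52 and -0.56, and it did not pass over all probe sets (unadjusted p = 0.00210, adjusted p = 0.461, limma). The probe sets had the same sign and differed in size. Their mean differed by -0.32 (unadjusted p = 0.00355, adjusted p = 0.673, limma). Of 5 laminin alpha chain genes 3 were measured, and these were dim. Lama4 and Lama5 had no single-symbol probe set in the annotation used. Lama1, Lama2 and Lama3 lay between the 14.8th and the 30.5th percentile of signal and had overlapping groups. The beta chain gene Lamb3 was dim too, at 4.16 and 4.14 against 3.88 and 4.31, on either side of the controls, as was Lamc3, which differed by 0.06.

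The probe sets of Nid1, which encodes a nidogen, disagreed. The brighter was higher on both knockdown arrays, and more so in knockdown 2. It read 4.10 and 4.08 in control against 4.44 and 4.59, 1.27-fold and 1.41-fold above the control mean. The difference was 0.42 (SE 0.09, 95% confidence interval 0.21 to 0.63) and did not pass (unadjusted p = 0.00231, adjusted p = 0.615, limma). Its signal was dim, at the 40th percentile. The other Nid1 probe set, of like brightness, went the other way at 4.15 and 4.17 against 4.08 and 4.09. For this reason no direction is given for the gene.

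A total of 17 members lay below the median signal of all genes (4.86), at which array signal can understate a fold change. Their differences ran from -0.18 (Itga6) to 0.42 (Nid1), with a median of -0.04. Itga1, a collagen-binding chain, read 3.95 and 3.84 against 4.19 and 4.08, a difference of 0.24 (SE 0.09), and the laminin-binding Itga6 read 4.60 and 4.45 against 4.33 and 4.36. Both were singled out with their values known. Itga5, the alpha chain of the fibronectin receptor, lay at the 13.1th percentile, and Itgb3, the partner of alpha-v in the vitronectin receptor, at the 29.9th. At such levels the small differences of Itga5 (-0.04) and Itgb3 (-0.11) say little about these genes. The other dim integrins, Itga2, Itga4, Itga7, Itgb2, Itgb4, Itgb6 and Itgb7, differed by -0.07 to 0.07.

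Probe sets of a gene often disagreed. Of the 20 members with more than 1 probe set, 9 had all of them on the same side of control and 11 had both signs. Of the 71 member probe sets 36 did not overlap between groups. Of these, 22 were lower in knockdown, against 19.9% of all probe sets, and 14 higher, against 18.6%. Before adjustment 7 lower and 4 higher had a p under 0.05 in limma, against 3.83% and 3.42% of all probe sets. The lowest adjusted p was 0.444.

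The cytoplasmic machinery that joins integrins to actin lay slightly above control in places. Of 28 genes listed 24 were measured, with a median difference of 0.04. Without overlap between groups, 7 were higher (29.2%), against 21.2% of all genes, and 4 were lower (16.7%), against 17.1%. In limma 0 passed the adjusted test. Before adjustment 5 higher and 1 lower had a p under 0.05, against 4.15% and 2.52% of all genes. Tln2, a talin that activates integrins, read 6.58 and 6.56 in control against 7.10 and 6.88, a difference of 0.42 (SE 0.09), although 1 of its 3 probe sets went the other way. The focal adhesion gene Zyx read 5.94 and 6.08 against 6.29 and 6.18 (0.23, SE 0.09), and here too 1 of 2 probe sets went the other way. Lims2, whose product binds integrin-linked kinase, was lower at 4.48 and 4.45 against 4.06 and 4.27. Of the brightest, Vcl, which encodes vinculin, read 10.33 and 10.33 against 10.14 and 10.31. However, 1 of its 2 probe sets went the other way, and their mean differed by -0.05. Cav1 and Crk overlapped between groups, with differences of 0.05 and -0.00017.

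**Figure D4:**
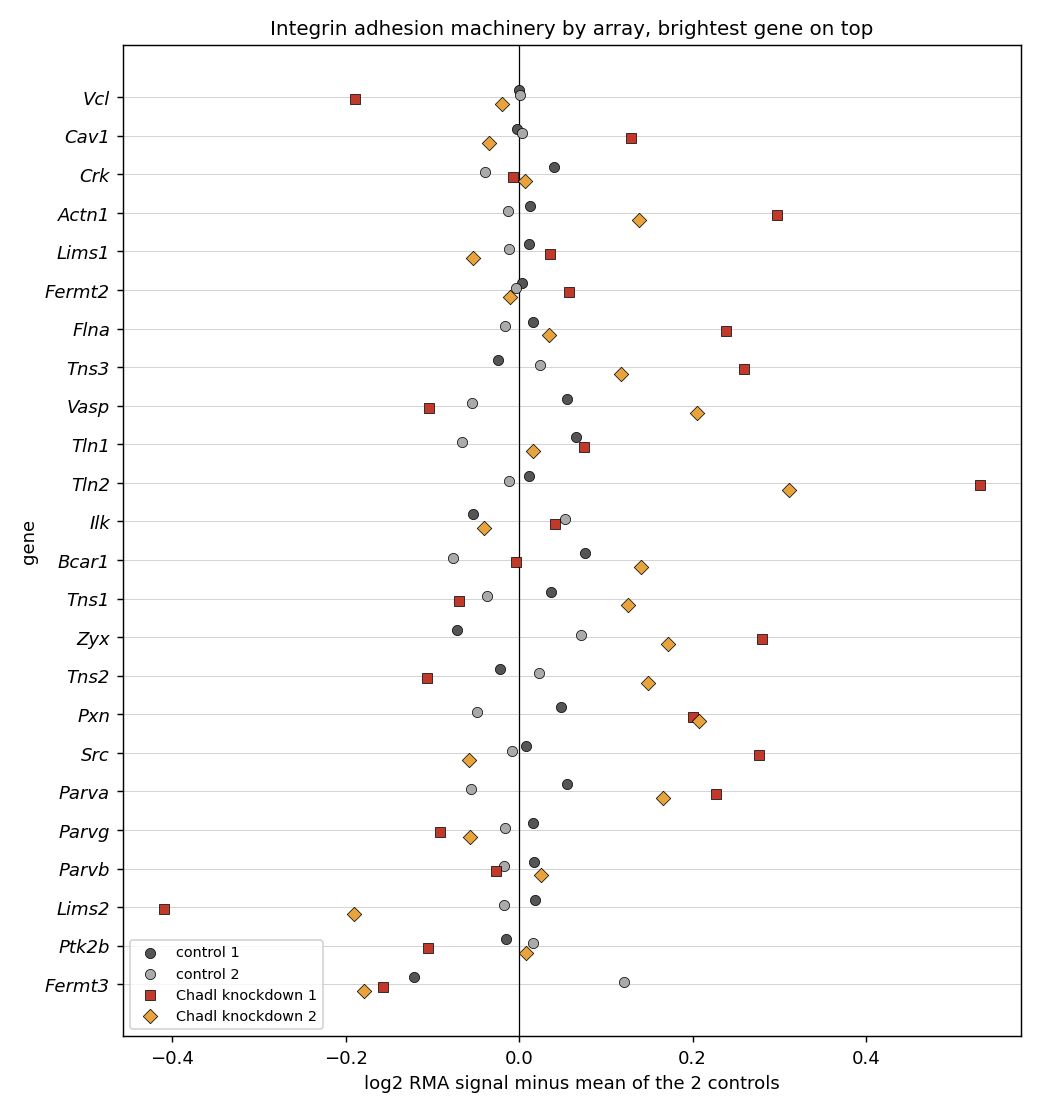
Log2 RMA signal of the 24 measured genes of the integrin adhesion machinery on each array (x axis), as the difference from the mean of the 2 controls, with genes in rows by falling signal (y axis) and 1 symbol per array. Tln2 is highest above the controls on both knockdown arrays and Lims2 lowest below them.

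Other basement membrane genes went in both directions. All 20 listed were measured, with a median difference of 0.03. Groups were apart for 7 higher genes (35%), against 21.2% of all genes, and for 3 lower genes (15%), against 17.1% of all. In limma 0 passed the adjusted test. An unadjusted p under 0.05 was reached by 3 higher genes, against 4.15% of all, and by 3 lower genes, against 2.52% of all. Col4a5, a chain of type IV collagen, read 9.54 and 9.46 in control against 9.29 and 9.17, a difference of -0.27 (SE 0.06) that was larger in knockdown 2. Dag1, the dystroglycan that holds laminin at the cell surface, read 9.09 and 9.10 against 8.95 and 8.97, with both knockdown arrays alike. The hemicentin gene Hmcn1 was lower at 6.75 and 6.72 against 6.15 and 6.57. On the higher side were the calcium-binding matrix genes Smoc1, at 7.09 and 7.0 against 7.64 and 7.18, and Smoc2, at 8.62 and 8.67 against 8.82 and 8.76. Fras1, of the epithelial basement membrane, was dim and higher at 3.96 and 4.0 against 4.38 and 4.16.

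Other ligands of integrins went in both directions. Of 18 listed 14 were measured, with a median difference of -0.0028. The knockdown arrays were apart from the controls for 4 lower genes, against 17.1% of all genes, and for 3 higher, against 21.2%. In limma 0 passed the adjusted test, while 3 lower and 2 higher had an unadjusted p under 0.05, against 2.52% and 4.15% of all genes. Ibsp, the RGD-bearing bone sialoprotein, was 4.39-fold lower on average (-2.13, SE 0.56), by -3.13 in knockdown 1 and -1.14 in knockdown 2. Dmp1, another RGD protein of bone, read 4.36 and 4.23 against 3.16 and 4.04, and Mepe, a further bone matrix gene, overlapped at 3.98 and 3.91 against 4.01 and 3.89. The tenascin gene Tnc read 9.80 and 9.91 against 9.30 and 9.79. Ibsp, Dmp1 and Tnc thus had knockdown 1 lowest, as Npnt did. Postn, the periostin gene, read 11.70 and 11.70 against 12.05 and 11.82, and Tgfbi, whose product binds integrins and collagen, read 10.08 and 10.11 against 10.47 and 10.23. Fibronectin (Fn1) read 11.79 and 11.80 against 11.87 and 11.79, with overlapping groups.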

How the data were processed

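Expression was measured on 4 Affymetrix arrays of biotin-labelled RNA, 2 control and 2 knockdown, grouped by their titles. The authors deposited log2 signals per probe set made with RMA, per the submitters' processing notes; that the logarithm is to base 2 was inferred from their range, and the software is not given in the sources used here. RMA makes the distributions of the arrays alike and compresses differences of dim genes. The number of arrays limits the precision, and an exact permutation test of 2 against 2 arrays cannot go below p = 0.333.

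Each gene was represented by its brightest probe set with 1 symbol, leaving out 104 array controls. Of the table's probe sets 28898 carried 1 symbol, 551 several and 15692 none. Symbols came from the platform annotation, which can be old, and all 33 member genes were found by gene identifier in RefSeq's table of GRCm38.p6. Knockdown was compared with control in limma 3.58.1 (under R 4.3.3, using lmFit and eBayes with its trend option, 2 residual and 4.45 prior degrees of freedom), with Benjamini-Hochberg adjustment over all 17097 genes, a two-sided threshold of 0.05 and no filter. The fit was run on simulated data in which all 4 arrays had the same variance. That checks the code and does not cover an array that stands apart, as knockdown 1 does. Members were named where at or above the median signal, or where the arrays did not overlap and the difference was at least 0.3, with Itga8 and Itgb1 added, which gave 17; from each other list the 3 brightest and the 3 largest differences without overlap were named. Other genes named were chosen after their values were seen. The members and all lists were chosen with earlier results of these data known.

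Alternatives were other normalizations, a filter on dim genes, averaged probe sets, eBayes without the trend or robust, the replicate number as a block, all probe sets, and each array left out. Promoter windows came from RefSeq (GRCm38.p6), matched by symbol for 23 of 33 members. No per-sample column was left unused.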

Additional observations from a re-analysis of the deposited data

How the results depend on the processing

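No member passed in any fit that kept both knockdown arrays, nor over all probe sets, where 1 probe set of the table passed. Before adjustment 1141 genes and 5 members had a p under 0.05. Leaving out an array gave 0 to 2584 genes and 0 to 10 members past the threshold, the lone array being taken to vary like the others. Without knockdown 1 these were 561 genes (3.28%) and 2 members (Nid1 and Sdc2). Without knockdown 2 they were 2584 genes (15.1%) and 10 members, 4 higher and 6 lower (Ddr2, Itga10, Itga8, Itgb5, Lamb1, Nid1, Npnt, Sdc2, Sdc3 and Sdc4). Members below both controls were 14 to 17 and members above both 7 to 11 when an array was left out, where fewer arrays have to separate. Over all genes those shares were 29.0% to 39.4% and 33.3% to 41.7%. The members' median was -0.084 with genes under the 40th percentile left out, which tested 19 members, and -0.067 to -0.013 with an array left out.

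Of 394 values of 36 named genes under the alternatives, 345 kept their direction and side of the threshold, 35 newly passed and 14 changed sign. Those that changed sign with an array left out ranged from -0.012 to 0.065 (Itga3), -0.013 to 0.32 (Lamb1), -0.094 to 0.029 (Lamb2), -0.72 to 0.018 (Sdc3), -0.035 to 0.13 (Cav1), -0.040 to 0.039 (Crk) and -0.0015 to 0.077 (Fn1). Crk was 0.0028 with quantile normalization and 0.0036 with median centring. With averaged probe sets Itga9 was 0.0095 and Itgav -0.0015. With the replicate number as a block 0 genes and 0 members passed and the median was -0.04. Deviations of same-numbered arrays from their group means did not correlate over genes (-0.0041), so the numbers are not taken as pairs. Dim signals limit what can be said of 17 members.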
